A study of Homo sapiens with 12 samples.

Results

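The tripartite motif (TRIM) genes were examined in RNA-seq data of K562 cells, an erythroid leukemia cell line, after inhibition of the deubiquitinase USP7. All protein-coding genes whose symbol begins with TRIM and a digit were taken, except TRIM27, which gave 76 of the 60609 genes listed in the count files. The comparison was between 3 libraries of cells treated with 10 μM FT671, a small-molecule USP7 inhibitor, and 3 libraries of cells given DMSO, both for 48 h. The labels name no transgene or deletion in either group, and do not say whether the numbered libraries came from separate cultures, while the study's text speaks of independent experiments. The p-values measure the spread between these libraries.

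TRIM proteins share an N-terminal arrangement of a RING domain, B-box zinc fingers and a coiled coil. The RING domain makes most of them E3 ubiquitin ligases, enzymes that attach ubiquitin to target proteins, which is the reaction that deubiquitinases such as USP7 reverse. The C-terminal domain differs between subfamilies and sets the targets. TRIM proteins with a SPRY domain are best known for restricting viruses and for tuning innate immune signaling, whereas those with a PHD finger and a bromodomain act on chromatin. A few members, among them TRIM14, TRIM16, TRIM44 and TRIM66, have no RING domain.

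The libraries held between 4555220 and 14250500 counts, so that 3 counts, taken as the smallest detectable level, corresponded to 0.208 to 0.666 CPM, the read count of a gene scaled to the TMM-adjusted library total. These floors cover counting error only. Among erythroid and K562 marker genes, HBG1 and HBG2 were higher and GATA1, KLF1, TAL1, GYPB, TFRC and EPOR were lower after FT671, and HBE1 did not pass the filter on low counts described next. Among marker genes of other cell types, MS4A1, KRT5 and COL3A1 were at 0 in all libraries, EPCAM was higher (60.8 to 84.9 CPM), and COL1A1 and PECAM1 did not pass the test. How far these marker changes bear on the TRIM genes was not tested, and in bulk RNA fewer cells of a type and less RNA per cell cannot be told apart.

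Of the TRIM genes that could be tested, more were lower than higher after FT671. Of the 76 genes, 36 had enough counts to be tested among 13895 genes (edgeR's filterByExpr), and 40 did not. By edgeR's quasi-likelihood test at a Benjamini-Hochberg adjusted p-value of 0.05, 18 of the 36 were lower, where 26.5% of all genes tested were lower. In the other direction 4 were higher, where 23.6% of all genes were, and 14 did not pass. The 18 lower genes were TRIM67, TRIM25, TRIM28, TRIM56, TRIM6, TRIM5, TRIM26, TRIM65, TRIM4, TRIM11, TRIM32, TRIM38, TRIM35, TRIM33, TRIM37, TRIM8, TRIM41 and TRIM58, and the 4 higher genes were TRIM7, TRIM23, TRIM13 and TRIM44. Every FT671 library lay below every DMSO library for 19 of the 36 (30.3% of all genes) and above for 4 (26.8% of all genes). The gene among the 19 that did not pass the test was TRIM39 (log2 fold change −0.36, adjusted p = 0.0694).

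Over the 36 genes the log2 fold change had a median of −0.32, beside −0.0103 over all genes tested, and the values ran from −1.60 for TRIM67 to 0.82 for TRIM7. The median size of the log2 fold change regardless of direction was 0.37, close to the 0.36 of all genes. When the log ratios were corrected for gene length the median of the 36 was −0.20, beside 0.0442 for all genes. The tested TRIM genes had a median exon length of 5561 bases and a median GC content of 50.8%, beside 4743.5 bases and 48.2% for all genes. At an adjusted p-value of 1e-05, 3 TRIM genes were lower (4.13% of all genes), TRIM25, TRIM28 and TRIM56, and by edgeR 0 were higher (1.79% of all genes). DESeq2's Wald test gave 6 lower and 0 higher at that threshold, and at an unadjusted p-value under 0.05 edgeR counted 19 lower and 4 higher. For neither of these was the share over all genes counted. The 3 lower genes at 1e-05 became 1 without FT671 replicate 3 and 8 without DMSO replicate 3.

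**Figure D1:**
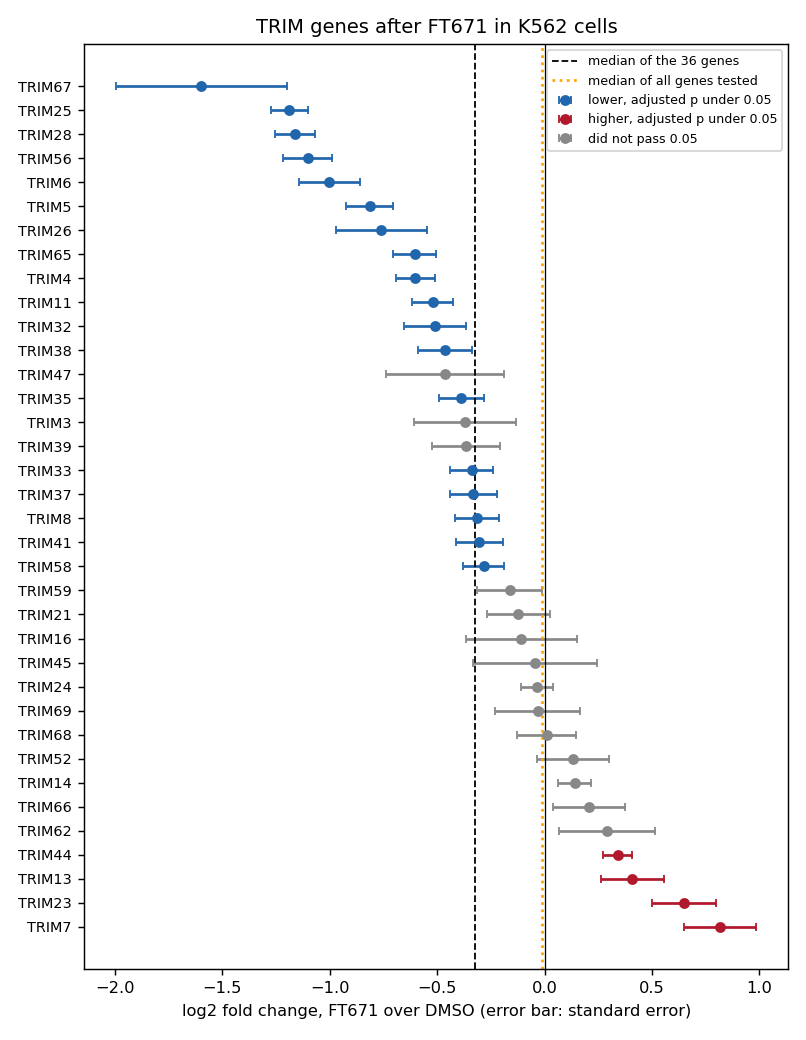
Log2 fold change of FT671 over DMSO (x axis) for each of the 36 TRIM genes tested, ordered by value, with standard errors as bars and colors for the edgeR calls at an adjusted p-value of 0.05. The 18 blue genes lie between −1.60 and −0.28, the 4 red genes between 0.34 and 0.82, and the dashed line marks the median of the 36 at −0.32.

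**Figure D2:**
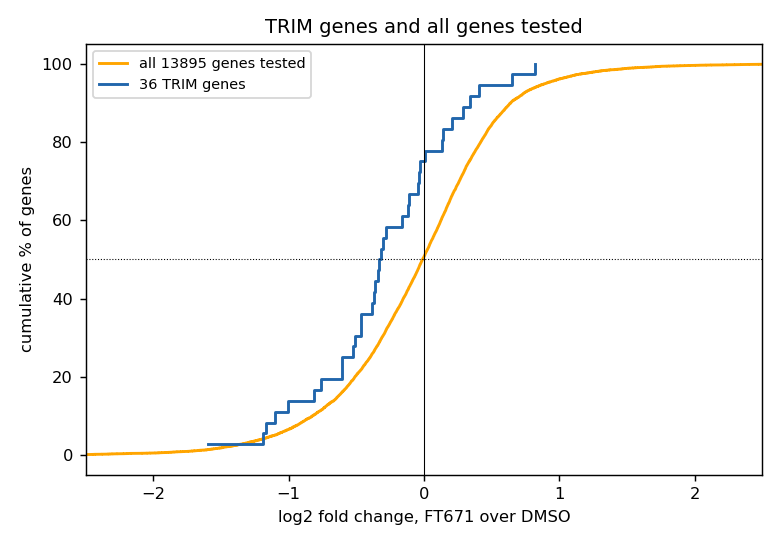
Cumulative percentage of genes (y axis) against the log2 fold change of FT671 over DMSO (x axis, shown from −2.5 to 2.5) for the 36 TRIM genes and for all 13895 genes tested. The TRIM curve lies to the left of the curve of all genes through the middle of the range and crosses 50% at −0.32 rather than at −0.0103.

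The chromatin regulators of the family, which carry a PHD finger and a bromodomain, comprise TRIM24, TRIM28, TRIM33 and TRIM66. All 4 were tested, 2 were lower (26.5% of all genes) and the other 2 did not pass, and their median log2 fold change was −0.19. TRIM28 (ENSG00000130726, chr19:58544064-58550722 in hg38, plus strand) encodes KAP1, the corepressor that KRAB zinc finger proteins recruit to silence transposable elements. Its CPM was 708, 717 and 592 in DMSO replicates 1 to 3 and 337, 271 and 295 in FT671 replicates 1 to 3. The groups were far apart, with the highest FT671 library under the lowest DMSO library. This was a log2 fold change of −1.16 ± 0.0938 (SE), or 2.24-fold lower (adjusted p = 3.73e-07).

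TRIM33 (TIF1γ), a ligase of the SMAD pathway with a role in blood formation, stood at 144, 142 and 184 CPM in DMSO and at 118, 117 and 133 CPM in FT671. DMSO replicate 3 was the highest library of TRIM33, and the groups did not overlap. The log2 fold change was −0.34 ± 0.1 (SE, adjusted p = 0.0119), and the call was lost without FT671 replicate 1 (adjusted p = 0.0501) or replicate 2 (adjusted p = 0.062). TRIM24 (TIF1α), a nuclear receptor coregulator that also targets p53, had 191, 195 and 211 CPM in DMSO and 179.9, 198 and 203 CPM in FT671. These libraries were intermixed and the log2 fold change was −0.03 ± 0.0751 (adjusted p = 0.729). TRIM66, a testis-enriched relative without a RING domain, had a log2 fold change of 0.21 (adjusted p = 0.323).

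Per exon length TRIM28 dominated the family. In TPM, a level scaled by exon length and library total, TRIM28 was at 518 ± 27.4 (SD, n = 3) in DMSO and 223 ± 23.1 (SD, n = 3) in FT671, the highest TRIM gene in both groups. The next genes by level in DMSO were TRIM24 at 71.5 TPM, TRIM44 at 66.99 TPM, TRIM14 at 56.2 TPM, TRIM33 at 54.7 TPM and TRIM58 at 50.3 TPM. The levels of TRIM24 and TRIM44, and those of TRIM14, TRIM33 and TRIM58, differed between neighbors by less than their SDs of 6.0 to 11.4 TPM, and the libraries of TRIM44 and TRIM14 overlapped as well. In FT671, TRIM44 at 81.2 TPM ranked above TRIM24 at 66.7 TPM, and TRIM14, TRIM33 and TRIM58 followed at 59.2, 40.9 and 39.1 TPM.

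Summed over the 76 genes, the level was 1229 ± 42.4 TPM (SD, n = 3) in DMSO and 805 ± 14.3 TPM in FT671, a ratio of 0.655. TRIM28 alone held 42.2% ± 3.54 of this sum in DMSO and 27.7% ± 2.41 in FT671. Without TRIM28 the sum was 711 ± 68.4 TPM in DMSO, with a range of 663 to 789, and 582 ± 11.0 TPM in FT671, with a range of 569 to 589, a ratio of 0.818. Of the 15 genes between 10 and 50 TPM in DMSO, 12 were lower and 3 did not pass. Of the 14 genes between 1 and 10 TPM, 2 were lower and 3 higher, of the 6 genes of at least 50 TPM, 3 were lower and 1 higher, and the 1 gene under 1 TPM was lower. Over genes of all levels, 26.5% were lower and 23.6% higher. The share of all genes called within each class was not counted, so these counts have no background of their own. Differences between these classes were not tested.

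The SPRY subfamily is the largest, with 43 of the 76 genes, and 20 of them were tested. Of these 20, 11 were lower (26.5% of all genes), 1 was higher (23.6% of all genes) and 8 did not pass, and the median of their log2 fold changes was −0.38. TRIM25 (ENSG00000121060, chr17:56836387-56914080 in hg38, minus strand) activates the RNA sensor RIG-I by ubiquitination. It was measured at 119.7, 116 and 118 CPM in DMSO and at 46.0, 52.0 and 56.0 CPM in FT671. Both groups were tight and widely separated. Its log2 fold change was −1.19 ± 0.0866 (SE), or 2.28-fold lower (adjusted p = 1.63e-07). An antisense long noncoding RNA (ENSG00000262112) that shares 4.3% of the exon bases of TRIM25 had a log2 fold change of −1.21, with 363 counts in all against 4759 for TRIM25, and their shared reads cannot be told apart without the strand setting of the counting.

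TRIM5, TRIM6, TRIM22 and TRIM34 lie side by side on chromosome 11, with a readthrough gene, TRIM6-TRIM34, between them. TRIM5 (ENSG00000132256) encodes the factor that recognizes retroviral capsids. Its CPM was 37.7, 33.9 and 37.5 in DMSO and 22.2, 18.9 and 20.9 in FT671. The values of both groups varied little and did not overlap, with a log2 fold change of −0.81 ± 0.109 (SE, adjusted p = 3.56e-05). TRIM6 (ENSG00000121236), which builds free ubiquitin chains for interferon kinase signaling, was at 16.7, 19.3 and 21.1 CPM in DMSO and at 9.11, 9.56 and 9.38 CPM in FT671. All FT671 libraries were near 9 CPM, and the log2 fold change was −1.0 ± 0.141 (SE, adjusted p = 5.49e-05). TRIM6 shares 29.2% of its exon bases with the readthrough gene, which had 0 counts, so its counts are uncertain to the extent that shared reads were not assigned. TRIM34 had 2 counts in all and TRIM22 had 11, and neither was tested.

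Further SPRY genes fell by smaller amounts. TRIM65, a ligase of the sensor MDA5, was at 38.6, 37.7 and 39.6 CPM in DMSO and at 26.7, 25.3 and 24.6 CPM in FT671, a log2 fold change of −0.60 ± 0.0995 (SE, adjusted p = 2.01e-04). TRIM4, a further ligase of RIG-I, was at 64.5, 67.2 and 63.4 CPM in DMSO and at 42.9, 45.8 and 40.5 CPM in FT671, a log2 fold change of −0.60 ± 0.0906 (SE, adjusted p = 9.37e-05). For both genes every FT671 library was below every DMSO library, and the libraries of a group were close to each other. TRIM38, a negative regulator of innate immune signaling, was at 27.6, 25.2 and 33.3 CPM in DMSO and at 21.3, 18.6 and 21.4 CPM in FT671, a log2 fold change of −0.46 ± 0.126 (SE, adjusted p = 0.00736). TRIM26, which lies in the major histocompatibility complex region of chromosome 6 and regulates interferon signaling, was low, at 7.34, 6.23 and 5.36 CPM in DMSO and at 4.44, 3.25 and 3.84 CPM in FT671. Its groups were close but did not overlap, and the log2 fold change of −0.76 ± 0.212 (SE, adjusted p = 0.00838) did not pass without DMSO replicate 1 (adjusted p = 0.0576).

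TRIM11, which acts in nuclear protein quality control, was at 82.3, 85.8 and 74.1 CPM in DMSO and at 60.0, 60.1 and 50.9 CPM in FT671. The third library was the lowest of each group, and the log2 fold change was −0.52 ± 0.0955 (SE, adjusted p = 4.73e-04). TRIM35, a ligase that binds the pyruvate kinase PKM2, was at 34.8, 37.7 and 36.4 CPM in DMSO and at 27.3, 30.1 and 26.2 CPM in FT671. Its log2 fold change was −0.39 ± 0.104 (SE, adjusted p = 0.00674), which did not pass without FT671 replicate 3 (adjusted p = 0.0525). TRIM41 and TRIM58, the second of which is an erythroid ligase that acts on dynein in red cell maturation, had the smallest decreases, with log2 fold changes of −0.30 (adjusted p = 0.0324) and −0.28 (adjusted p = 0.0234). TRIM41 did not pass without DMSO replicate 1, DMSO replicate 2, FT671 replicate 2 or FT671 replicate 3 (adjusted p of 0.0625 to 0.115), and TRIM58 did not pass without DMSO replicate 2, FT671 replicate 1 or FT671 replicate 2 (adjusted p of 0.0507 to 0.097). The erythroid markers moved in both directions. The master regulators GATA1, KLF1 and TAL1 went from 297 to 244, 151 to 85.9 and 140 to 72.6 CPM on average. The globin genes HBG1 and HBG2 rose from 36.9 to 99.0 and from 28.2 to 66.9 CPM. The part of these markers in the TRIM58 value was not tested.

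TRIM7, first described as a binding partner of glycogenin, was the exception among the SPRY genes. It was at 8.03, 7.60 and 5.36 CPM in DMSO and at 13.8, 13.4 and 11.9 CPM in FT671. The groups did not overlap, and the log2 fold change of 0.82 ± 0.168 (SE), or 1.76-fold higher, was the largest rise among the tested TRIM genes (adjusted p = 0.00108). TRIM7 lies within 300 kb of TRIM41 and TRIM52 at the end of chromosome 5, and these neighbors had log2 fold changes of 0.82, −0.30 and 0.13. TRIM14, an adaptor of the mitochondrial antiviral protein MAVS, was at 90.0, 89.4 and 97.6 CPM in DMSO and at 104, 96.3 and 104 CPM in FT671. The ranges of TRIM14 overlapped and the gene did not pass the test (log2 fold change 0.14, adjusted p = 0.148). The remaining SPRY genes that did not pass were TRIM47 (−0.46), TRIM39 (−0.36), TRIM21 (−0.12), TRIM16 (−0.11), TRIM69 (−0.03), TRIM68 (0.0096) and TRIM62 (0.29), where each value is a log2 fold change. The counts of TRIM47, TRIM39 and TRIM16 are uncertain because of shared exon bases. TRIM47 shares 51.6% with an antisense noncoding gene and TRIM16 23.5% with a gene on its own strand. TRIM39 shares 15.2% with the antisense gene HCG18 and 29.5% with the readthrough gene TRIM39-RPP21.

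**Figure D3:**
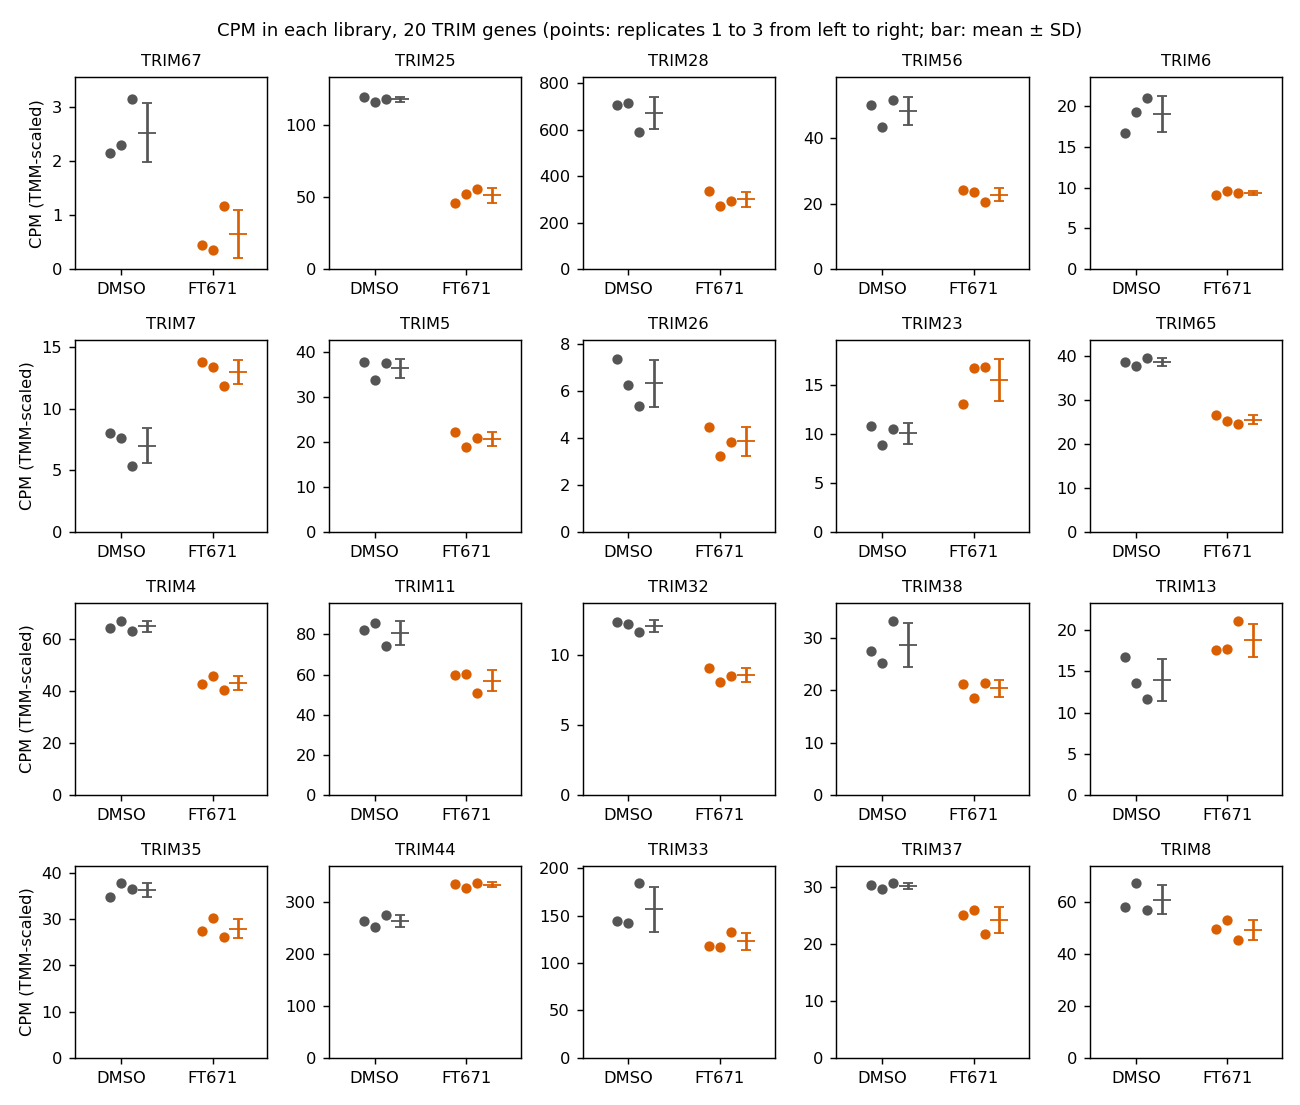
CPM in each library (y axis, from 0 in every panel) for the 20 TRIM genes with the largest log2 fold changes in size among those that passed the test and whose groups did not overlap. Points are replicates 1 to 3 from left to right, bars are mean ± SD of 3 libraries, and FT671 lies below DMSO in 16 panels and above it in 4, those of TRIM7, TRIM23, TRIM13 and TRIM44.

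Because several of these ligases belong to the interferon response, the promoters were searched for the core of the interferon-stimulated response element, which is the letters GAAA, any 2 bases and GAAA again, on both strands. RefSeq promoters of build hg38 were found for 62 of the 76 genes, and the 250 bases before the RefSeq start were read. For TRIM5, TRIM16, TRIM34 and TRIM69 the matched stretch lay inside the GENCODE span of the gene. There it was downstream of the outermost annotated start and may be transcribed from it. The core was present in 9 of these 62 (14.5%), beside 3.02% of all 35116 promoters. The sets are unlike, because 1 promoter was kept per TRIM gene while the 35116 were not reduced to 1 per gene or limited to protein-coding genes. Among tested TRIM genes it was present in 6 of 28, of which TRIM5 and TRIM26 were lower, TRIM44 was higher, and TRIM14, TRIM16 and TRIM69 did not pass the test. It was in 2 of the 13 promoters of lower genes and in 1 of the 3 of higher genes, so genes with the same letters moved in both directions. A match is a description of the sequence and not evidence that a factor binds there, and TRIM2, TRIM34 and TRIM64C, which also matched, were not tested. The stretches below are shown because they carry the match in the tested genes, with the matched letters in capitals, up to 30 bases on each side and the strand of the gene.
TRIM5, chr11:5685075-5685131, minus strand: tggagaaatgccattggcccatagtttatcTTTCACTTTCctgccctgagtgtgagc
TRIM26, chr6:30213555-30213630, minus strand: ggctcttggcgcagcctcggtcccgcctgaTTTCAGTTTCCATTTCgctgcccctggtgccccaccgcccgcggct
TRIM44, chr11:35662710-35662774, plus strand: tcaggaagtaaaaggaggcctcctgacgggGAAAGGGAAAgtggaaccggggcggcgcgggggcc
TRIM14, chr9:98119223-98119278, minus strand: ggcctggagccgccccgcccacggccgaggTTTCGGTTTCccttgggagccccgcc
TRIM16, chr17:15682992-15683061, minus strand: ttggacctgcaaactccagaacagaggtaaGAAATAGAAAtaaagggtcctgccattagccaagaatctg
TRIM69, chr15:44736436-44736505, plus strand: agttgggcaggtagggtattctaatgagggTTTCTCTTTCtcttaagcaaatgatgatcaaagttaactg
The match in TRIM5 and TRIM14 began 27 and 26 bases before the start, and that of TRIM44 began 35 bases before it. TRIM26 held 2 overlapping matches.

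The genes with no named C-terminal domain included TRIM56, which passed 1e-05. Of 10 such genes 4 were tested, of which 2 were lower (26.5% of all genes) and 1 higher (23.6% of all genes). TRIM56 (ENSG00000169871, chr7:101085481-101097967 in hg38, plus strand), an antiviral ligase of the cGAS and STING pathway of DNA sensing, was at 49.998, 43.3 and 51.6 CPM in DMSO and at 24.2, 23.5 and 20.5 CPM in FT671. The FT671 libraries were close to each other and far below the DMSO libraries. The log2 fold change was −1.10 ± 0.114 (SE), or 2.15-fold lower (adjusted p = 3.49e-06). TRIM8, a modulator of cytokine signaling and p53, was at 58.0, 67.1 and 56.9 CPM in DMSO and at 49.3, 53.0 and 45.1 CPM in FT671. Its log2 fold change was −0.32 ± 0.101 (SE, adjusted p = 0.0184). A divergent noncoding transcript, TRIM8-DT, shares 19.3% of the exon bases of TRIM8 on the opposite strand and was higher (log2 fold change 0.73, adjusted p = 0.00352). The strand setting is not given in the sources used here, so reads of such pairs cannot be told apart. The call of TRIM8 was lost without DMSO replicate 2 (adjusted p = 0.11) or FT671 replicate 3 (adjusted p = 0.116).

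TRIM44, which carries a ubiquitin protease type zinc finger in place of the RING domain and is regarded as a stabilizer of its targets, was higher. It was at 263, 252 and 274 CPM in DMSO and at 335, 327 and 336 CPM in FT671. The lowest FT671 library was well above the highest DMSO library, and the log2 fold change of 0.34 ± 0.0669 (SE) had the smallest standard error among the tested TRIM genes (adjusted p = 7.95e-04). TRIM52 did not pass the test (log2 fold change 0.13, adjusted p = 0.53). It shares 27.6% of its exon bases with a noncoding gene on the opposite strand, so its counts are uncertain.

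Of the 4 genes with other C-terminal domains, 2 were higher (23.6% of all genes), 1 was lower (26.5% of all genes) and 1 did not pass. TRIM23, which joins the ligase to a GTPase domain of the ARF family and acts in autophagy, was at 10.9, 8.89 and 10.5 CPM in DMSO and at 13.1, 16.8 and 16.9 CPM in FT671. FT671 replicate 1 was the lowest of its group and still above all DMSO libraries, and the log2 fold change was 0.65 ± 0.15 (SE, adjusted p = 0.0025). TRIM13, which is anchored in the endoplasmic reticulum and takes part in the degradation of proteins from it, was at 16.7, 13.6 and 11.6 CPM in DMSO and at 17.5, 17.7 and 21.1 CPM in FT671. The groups were separated by less than 1 CPM. Its log2 fold change of 0.41 ± 0.148 (SE, adjusted p = 0.0326) did not pass without DMSO replicate 2 (adjusted p = 0.0906) or without FT671 replicate 3 (adjusted p = 0.194). TRIM13 shares 8.5% of its exon bases with the antisense gene DLEU2, which had a log2 fold change of 0.43 (adjusted p = 0.0345).

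TRIM37, a peroxisomal and centrosomal ligase with a MATH domain, was at 30.3, 29.6 and 30.7 CPM in DMSO and at 25.1, 26.0 and 21.7 CPM in FT671. The DMSO libraries were nearly equal, and the log2 fold change was −0.33 ± 0.109 (SE, adjusted p = 0.0211). It lost its call without DMSO replicate 1 (adjusted p = 0.0629) or FT671 replicate 3 (adjusted p = 0.151). TRIM37 shares 5.2% of its exon bases with PPM1E and 5.9% with a long noncoding RNA, both on the opposite strand. PPM1E had 3730 counts in all against 1427 for TRIM37 and was higher (log2 fold change 0.22, adjusted p = 0.0335). Their shared reads cannot be told apart without the strand setting. TRIM59, a membrane-anchored member, did not pass the test (log2 fold change −0.16, adjusted p = 0.389). DMSO replicate 3 stood apart for TRIM59 at 87.4 CPM, above 55.2 and 58.2 CPM in the other DMSO libraries, and the gene shares 19.9% of its exon bases with the more abundant SMC4.

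The COS box genes, which bind microtubules and are mostly expressed in nerve and muscle, were nearly silent in K562 cells. Of 8 genes only TRIM67 passed the filter, and its level was under 1 TPM. Its CPM was 2.15, 2.29 and 3.14 in DMSO and 0.444, 0.361 and 1.16 in FT671. It passed the filter through its DMSO libraries, with 31, 25 and 17 counts, while the FT671 values rest on 2, 2 and 13 counts, so the log2 fold change of −1.60 ± 0.396 (SE, adjusted p = 0.00412) is both the largest in size and the least precise of the 36. Without FT671 replicate 3 it was −2.55, and at 10 or more counts in every library the gene could not be tested.

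Of the 5 genes with NHL repeats or a filamin domain, 3 were tested. TRIM32, whose mutations cause a limb-girdle muscular dystrophy, was at 12.4, 12.3 and 11.6 CPM in DMSO and at 9.11, 8.12 and 8.49 CPM in FT671. The groups were tight and did not overlap, and the log2 fold change was −0.51 ± 0.143 (SE, adjusted p = 0.0087). TRIM3 (−0.37, adjusted p = 0.211) and TRIM45 (−0.04, adjusted p = 0.911) did not pass, where both values are log2 fold changes.

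The 40 genes that did not pass the filter had totals of 0 to 77 counts. In all libraries together 0 counts were recorded for TRIM10, TRIM15, TRIM31, TRIM40, TRIM42, TRIM43, TRIM43B, TRIM48, TRIM49, TRIM49B, TRIM49C, TRIM49D1, TRIM49D2, TRIM51, TRIM51G, TRIM60, TRIM64, TRIM64B, TRIM64C, TRIM77 and the readthrough genes TRIM6-TRIM34 and TRIM39-RPP21, 22 genes in all. Several of these, such as the copies of TRIM43, TRIM49 and TRIM64, are near-identical, and reads that match more than 1 copy may have been left uncounted. A total of 1 count was recorded for each of TRIM50, TRIM55, TRIM74 and TRIM75, and 2 counts for each of TRIM34 and TRIM73. The totals were 3 for TRIM61, 4 for TRIM72, 7 for TRIM54, 8 for TRIM9, 11 for TRIM22, 14 for TRIM71, 15 for TRIM46, 20 for TRIM63, 32 for TRIM29, 43 for TRIM2, 53 for TRIM36 and 77 for TRIM17. Of these TRIM17 had 25, 30 and 6 counts in DMSO and 1, 3 and 12 in FT671. Scaled to the library totals, the lowest DMSO library of TRIM17 was at 1.11 CPM and the highest FT671 library at 1.07 CPM. Without the filter TRIM17 passed the test with a log2 fold change of −1.43 (adjusted p = 0.00551).

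Genes of the pathways in which these ligases act were counted in the same way. Of 18 tested genes of nucleic acid sensing, where TRIM25, TRIM4, TRIM65 and TRIM56 work, 9 were lower (26.5% of all genes) and by edgeR 0 were higher (23.6% of all genes), and their log2 fold changes had a median of −0.27, beside −0.0103 for all genes. DESeq2's Wald test gave 6 lower and 0 higher, where 3121 of 13895 genes were lower and 3007 higher. At an unadjusted p-value under 0.05 edgeR gave 9 lower and 0 higher, and the share over all genes was not counted. Without FT671 replicate 2 the 9 became 5, where 3195 of 14917 genes were lower. The largest decreases were those of NLRX1, a mitochondrial regulator of antiviral signaling (log2 fold change −1.93, adjusted p = 2.24e-04, with 5, 3 and 12 counts in FT671, so that it passed the filter through DMSO), TRAF3, a ligase of interferon induction (−0.96, adjusted p = 2.29e-05), and the kinase TBK1 (−0.66, adjusted p = 0.00258). MAVS, TRAF6, RELA, NFKB1, MAP3K7 and ZC3HAV1 were the others. The sensors targeted by TRIM25, TRIM4 and TRIM65 did not pass, with RIGI (encoding RIG-I) at a log2 fold change of 0.23 (adjusted p = 0.576) and IFIH1 (MDA5) at −0.64 (adjusted p = 0.207), and both were under 3 CPM in every library.

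Of 25 tested interferon-stimulated genes, 7 were higher (23.6% of all genes) and 6 lower (26.5% of all genes), and their log2 fold changes had a median of −0.04. The largest changes were those of CMPK2 (−2.5, adjusted p = 3.21e-08), RSAD2, which encodes viperin (−1.95, adjusted p = 0.00124), and IFI6 (1.21, adjusted p = 0.00317), each given as a log2 fold change. RSAD2 had 2, 5 and 5 counts in FT671 and passed the filter through DMSO, and IFI6 had 18, 18 and 5 counts in DMSO and passed it through FT671. The 6 lower genes became 3 without FT671 replicate 2 or without FT671 replicate 3, where 3195 of 14917 and 2972 of 13315 genes were lower. Of the 21 listed partners of TRIM28, all tested, 8 were lower (26.5% of all genes) and 6 higher (23.6% of all genes), and their log2 fold changes had a median of 0.13. The list was not limited to silencing factors and held MAGEA3, MAGEA6 and MAGEC2. Of these, MAGEC2 was among the 6 higher (log2 fold change 0.53, adjusted p = 5.78e-04), and MAGEA3 and MAGEA6 did not pass. MORC2, an ATPase of the HUSH pathway (−0.87, adjusted p = 8.52e-06), CBX5, the heterochromatin protein HP1α (−0.82, adjusted p = 7.88e-06), and the histone deacetylase HDAC1 (−0.53, adjusted p = 4.92e-05) had the largest changes in size. SETDB1, the histone methyltransferase that TRIM28 recruits, was at 94.7, 91.8 and 92.6 CPM in DMSO and at 78.6, 78.5 and 80.7 CPM in FT671, a small decrease (log2 fold change −0.23, adjusted p = 0.0193). The 6 higher partners became 3 without DMSO replicate 1 or without FT671 replicate 3. In these 2 settings 2636 of 13301 and 2522 of 13315 genes were higher. The 8 lower partners became 5 without FT671 replicate 1 or FT671 replicate 2, where 3399 of 14891 and 3195 of 14917 genes were lower.

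Of 7 TRIM family genes that carry other symbols 3 were tested, of which 2 were lower (26.5% of all genes) and 0 higher (23.6% of all genes). BSPRY was lower (log2 fold change −1.15, adjusted p = 0.0126, with 4, 4 and 12 counts in FT671, so that it passed the filter through DMSO). PML (TRIM19), the scaffold of nuclear bodies, was lower as well (−0.32, adjusted p = 0.00485). MID1 (TRIM18), a microtubule-binding ligase, did not pass (−0.44, adjusted p = 0.203).

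**Figure D4:**
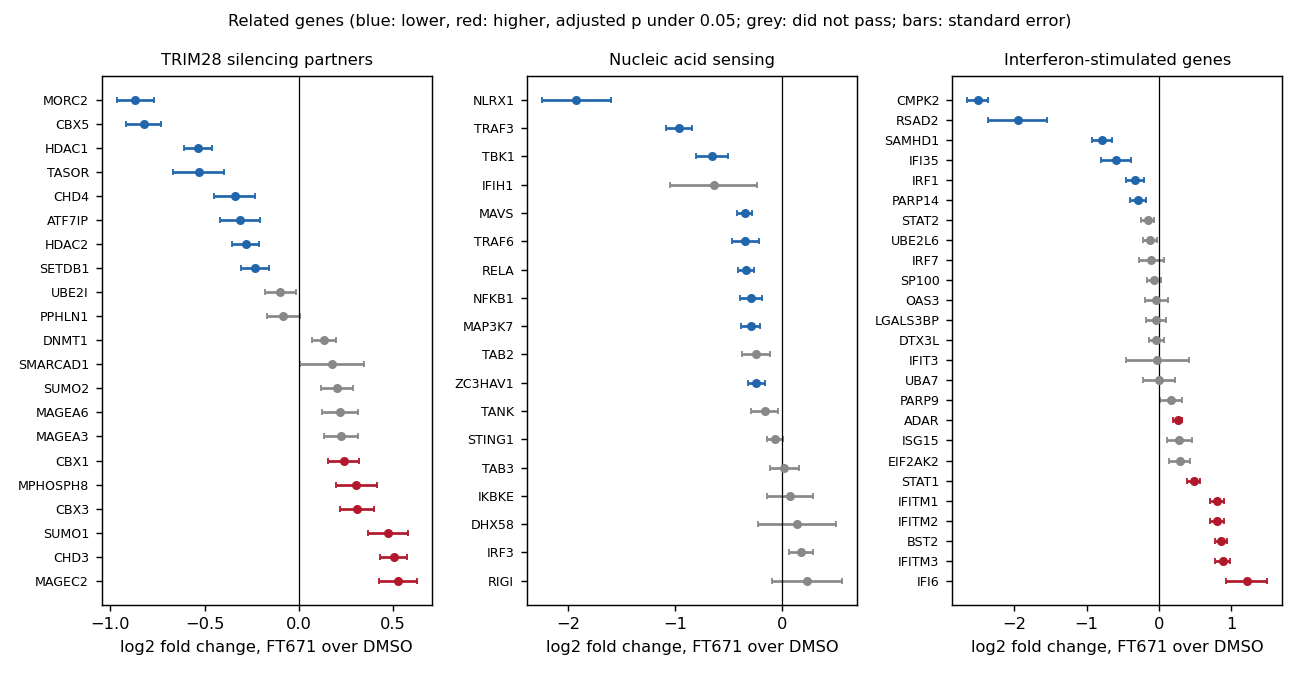
Log2 fold change of FT671 over DMSO (x axis) with standard errors for the listed partners of TRIM28 (21 genes, panel titled silencing partners), genes of nucleic acid sensing (18 genes) and interferon-stimulated genes (25 genes). The partners and the interferon-stimulated genes have points of both colors, with 8 and 6 blue genes (lower) and 6 and 7 red genes (higher), whereas the sensing panel has 9 blue and 0 red genes.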

How the data were processed

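RNA-seq was analysed from 6 libraries of K562 cells, 3 per treatment. Per the study's methods, RNA was depleted of ribosomal RNA (KAPA RNA HyperPrep with RiboErase) and sequenced paired-end on a NextSeq500, and alignment by the authors used two-pass STAR and the hg38 genome. The deposited values are raw read counts per gene without normalization. The STAR version, annotation release and strand setting are not given in the sources used here. Identifiers were matched to GENCODE 44 (60295 of 60609).

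Counts were filtered with filterByExpr, scaled by TMM and tested with edgeR 4.0.16 (quasi-likelihood test, no covariates, R 4.3.3) over all 13895 genes, with Benjamini-Hochberg adjustment. CPM used TMM-scaled library sizes and TPM the exon length. The standard error is the log2 fold change divided by the square root of F. In simulated counts of FT671 against DMSO (13709 genes), 81 of 86 genes changed by 1 on the log2 scale and 111 of 111 changed by 2 were recovered at 0.05, with 17 false calls. Changes smaller than 1 were not simulated, and the spread was set equal for all genes. Recovery of the smaller changes that most of the called TRIM genes had was therefore not measured.

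The TRIM genes, the related lists and the naming rule were chosen with earlier results of these data known. All tested TRIM genes are named. Values by library are given for up to 20 that passed the test without overlap between groups and for the 5 of highest TPM, and in each other list the 3 largest changes are named. SETDB1, RIGI, IFIH1, the 6 other sensing genes and the neighboring transcripts were named after their values were seen. Alternatives were other scalings, DESeq2 1.42.0, other filters, a replicate block, corrections for length and GC content, thinning to the smallest library and leaving out each library. ChIP samples were not analysed here, and a planned comparison of protein sequences was not run. A few marker genes are not reported here.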

Additional observations from a re-analysis of the deposited data

How the results depend on the processing

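All 22 TRIM genes that passed the test kept their sign under every one of the up to 17 alternatives that gave a value, and 14 (11 lower, 3 higher) passed 0.05 under all of them. TRIM13, TRIM26, TRIM33, TRIM35, TRIM37, TRIM41, TRIM58 and TRIM8 lost their call under at least 1 alternative, among them TRIM33, TRIM37, TRIM41, TRIM58 and TRIM8 with length correction. TRIM14, TRIM39 and TRIM59 gained a call under at least 1 alternative. Calls at 1e-05 moved most. The 3 lower genes became 6 with DESeq2's Wald test, 8 without the filter on low counts and 5 with GC correction, and the 0 higher genes became 1 with length correction and 1 with length correction and the replicate block. The median of −0.32 was −0.20 with length correction and −0.21 with length correction and the replicate block. Shares over all genes at 1e-05 were not counted under these settings, and the cause of these shifts was not tested. Leaving out 1 library gave 3 to 5 TRIM genes higher and 14 to 19 lower at 0.05, 0 to 1 higher and 1 to 8 lower at 1e-05, and medians from −0.34 to −0.27. It gave 7 to 8 interferon-stimulated genes higher and 3 to 4 lower, 3 to 9 TRIM28 partners higher and 5 to 8 lower, and 0 to 1 sensing genes higher and 5 to 8 lower. Over all genes, 2522 of 13315 were higher and 2972 lower without FT671 replicate 3. Without DMSO replicate 3, 3830 of 14909 were higher and 4100 lower. DESeq2's Wald test gave 3 lower interferon-stimulated genes, where 3121 of 13895 genes were lower.

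Across genes, the departures of same-numbered libraries from their group means had a Pearson's r of 0.115, −0.0605 and 0.14. The replicate numbers were not taken to pair the samples, but this check does not settle whether they do. With a replicate block the common coefficient of variation between libraries was 0.0736, beside 0.0832 without it. Over all 13895 genes, 3374 were higher and 3761 lower with the block, beside 3276 and 3687 without it. With the replicate block 4 TRIM genes were higher and 18 lower at 0.05, 3 were lower at 1e-05 and the median was −0.30, and the block changed no TRIM call. Genes with few counts, such as TRIM67, are limited by depth.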

Other observations

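Noncoding genes named after a TRIM gene were not part of the comparison. Of the 3 that passed the filter, TRIM52-AS1 went from 13.5 to 19.1 CPM on average (log2 fold change 0.51, adjusted p = 0.00424) and TRIM8-DT from 6.13 to 10.7 CPM (0.73, adjusted p = 0.00352), while TRIM7-AS2 did not pass (0.53, adjusted p = 0.229). Of their neighbors, TRIM52 had a log2 fold change of 0.13, TRIM8 of −0.32 and TRIM7 of 0.82. By position, 10 groups of TRIM genes lay within 300 kb of one another, and the 3 and 7 genes of the clusters around TRIM49B and TRIM49 on chromosome 11 had 0 counts in all libraries.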
